A study of Mus musculus with 2 samples.

Results

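The peaks described here are the regions enriched for 5-hydroxymethylcytosine (5hmC) around 8 genes tied to pluripotency in mouse embryonic stem (ES) cells. The genes are Pou5f1, Sox2, Nanog, Klf4, Esrrb, Tbx3, Prdm14 and Zfp42, the last of which is a marker. A peak was taken if its midpoint lay within 100 kb of a fixed interval that holds the gene on mouse build mm9. This gave 163 peaks of 121661 in all, 87 of 57827 in the list labelled for ascorbic acid (AA) and 76 of 63834 in the list without that label. The data came from ES cells of strain 129SvEv. In 1 library the cells had been kept with 100 µM AA (vitamin C) for 24 h, and the label of the other library names no incubation, so it stands for the cells without AA. Fragments carrying 5hmC were tagged with biotin, pulled down and sequenced, and 1 list of peaks was deposited per library. The medium of the cells is not given in the sources used here, and DNA of this kind holds no marker that could check the cell type. Each group is 1 library, which gives no replicate error, so the groups were compared without a test. Intervals of single counts, shares and ratios cover counting error only.

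The 2 lists carry a doubt about their identity. The header inside each of the 2 files names the other sample. Each list is named here after the sample record that holds it (AA-labelled or no-AA-labelled). Should the headers be the true names, every direction given between the lists is the opposite. The AA-labelled library held 11907082 tags (aligned reads, at most 1 kept per position) and the other 18398162, a depth 1.55 times that of the first. The fragment lengths used by the peak caller were 229 and 165 bp.

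Pluripotency in mouse ES cells rests on a network of transcription factors. Pou5f1 (Oct4), Sox2 and Nanog form its core and bind many enhancers together, and Klf4, Esrrb and Tbx3 are further factors of the network that reinforce self-renewal. Prdm14 holds back the de novo DNA methyltransferases and the FGF response, and Zfp42 (Rex1) is a common marker of the naive state. 5hmC is made from 5-methylcytosine at CpG sites by the Tet dioxygenases, of which Tet1 and Tet2 are active in ES cells, and vitamin C is a reductant and a known cofactor of dioxygenases such as these.

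5hmC is formed at methylated CpG, so the CpG sites before the start of each gene are shown first. Their number in the reference does not tell how many were methylated. The promoter table of RefSeq on GRCm38.p6 held 6 of the 8 genes. Of each, the 250 bases before the outermost start were taken and the motif CG was counted, which reads the same on both strands. Sox2 had 27 CpG and Klf4 32, more than 91.4% and 95.4% of the 32851 promoters of the table. Nanog had 3, Esrrb 6, Pou5f1 8 and Zfp42 9, beside a median of 6 (quartiles 2 and 16), and 92.1% of all promoters held at least 1. The promoters of the CpG-rich pair, of Nanog with the fewest CpG and of Esrrb, whose gene interval held most peaks, are shown 5′ to 3′ with each CpG in capitals. They are chr3:34649745-34649994 on the plus strand for Sox2, chr4:55532476-55532725 on the minus strand for Klf4, chr6:122707239-122707488 on the plus strand for Nanog and chr12:86360867-86361116 on the plus strand for Esrrb. These positions are on GRCm38.p6 and cannot be set beside the mm9 positions of the peaks, so no peak was placed on a start site.
Sox2: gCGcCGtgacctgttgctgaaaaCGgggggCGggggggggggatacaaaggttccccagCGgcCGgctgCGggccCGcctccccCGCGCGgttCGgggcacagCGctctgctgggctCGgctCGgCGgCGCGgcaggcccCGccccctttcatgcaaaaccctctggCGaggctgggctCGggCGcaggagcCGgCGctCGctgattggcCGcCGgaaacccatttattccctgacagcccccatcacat
Klf4: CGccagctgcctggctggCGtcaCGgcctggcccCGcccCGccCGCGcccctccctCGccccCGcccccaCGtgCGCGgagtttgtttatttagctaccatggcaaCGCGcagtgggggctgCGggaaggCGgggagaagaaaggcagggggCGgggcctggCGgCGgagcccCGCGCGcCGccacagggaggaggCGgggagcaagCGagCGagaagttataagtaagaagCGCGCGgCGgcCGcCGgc
Nanog: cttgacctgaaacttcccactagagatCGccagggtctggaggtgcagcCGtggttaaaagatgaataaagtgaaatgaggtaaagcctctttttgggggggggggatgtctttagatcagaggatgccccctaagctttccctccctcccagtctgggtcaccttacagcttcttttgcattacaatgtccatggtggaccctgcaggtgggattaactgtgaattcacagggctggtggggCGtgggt
Esrrb: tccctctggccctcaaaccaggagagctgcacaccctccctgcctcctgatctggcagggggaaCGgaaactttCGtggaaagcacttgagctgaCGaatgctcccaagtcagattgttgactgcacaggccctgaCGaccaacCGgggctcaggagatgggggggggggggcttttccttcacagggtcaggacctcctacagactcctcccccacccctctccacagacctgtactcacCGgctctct

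Summed over the 8 windows, peaks lay closer together than on the autosomes as a whole. In 1832 kb of windows there were 47.5 AA-labelled peaks per Mb (95% Poisson interval 38 to 58.6) and 41.5 no-AA-labelled peaks per Mb (32.7 to 51.9), while the autosomes as a whole held 23.3 and 25.7 per Mb between their first and last peak. Windows of 200 kb laid over all autosomes held a median of 4 AA-labelled peaks (upper quartile 7, 90th percentile 9) and of 5 no-AA-labelled peaks (7 and 10). In the AA-labelled list the loci ranged from 4 peaks at Zfp42 to 21 at Esrrb, whose window is the longest at 365 kb. In the no-AA-labelled list they ranged from 7 at Nanog to 13 at Prdm14. Per Mb, Nanog (28.8) and Zfp42 (18.8) were the lowest in the AA-labelled list, and the other 6 loci lay between 51.2 and 57.5, with Esrrb the highest. In the no-AA-labelled list Esrrb was the lowest of the 8 (27.4) and Prdm14 the highest (60.5). Within each list the Poisson intervals of these loci overlap one another. In the AA-labelled list those of Nanog and Zfp42 include the autosomal 23.3. In the no-AA-labelled list all but those of Klf4 (from 30.1) and Prdm14 (from 32.2) include 25.7. Prdm14 and Zfp42 lie on chromosomes 1 and 8, which are rich in peaks in these libraries (27.4 and 32.9 per Mb on chromosome 1, 29.4 and 35.4 on chromosome 8). The intervals of Prdm14 and Zfp42 include the density of their own chromosome in both lists. Without these loci the remaining windows held 51.3 and 39.2 peaks per Mb. The farthest members were a peak at 99.8 kb from Zfp42 with 14 tags and, in the other list, one at 97.5 kb from Prdm14 with 34 tags. The nearest peaks left out lay at 100.4 kb from Nanog and 101.3 kb from Prdm14, with 23 and 36 tags.

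**Figure D1:**
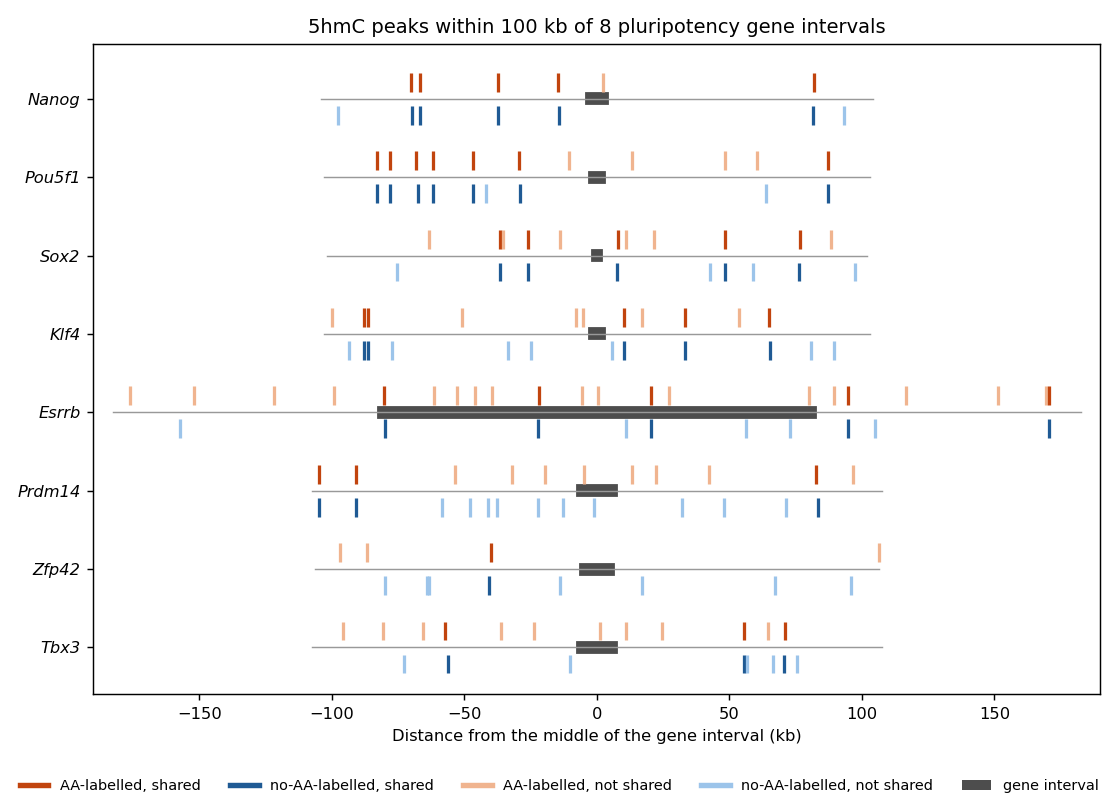
Midpoints of the peaks at the 8 loci, with distance from the middle of the gene interval in kb on the x axis and the loci on the y axis; marks above each line are AA-labelled, marks below it are from the other list, strong colours stand for shared peaks and the dark bar is the gene interval. No peak has its midpoint in the intervals of Pou5f1, Sox2, Klf4 and Zfp42, and 17 of the 21 that lie in an interval are at Esrrb. The Esrrb interval makes up 165 of the 232 kb of all 8 intervals.

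**Figure D2:**
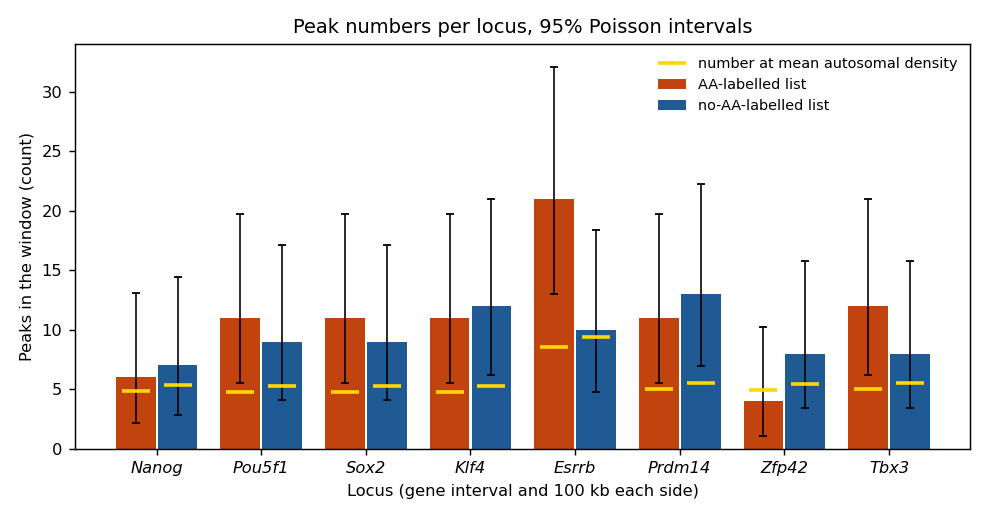
Number of peaks in each window by list, with 95% Poisson intervals; the yellow marks give the number that the mean autosomal density would put into a window of that length. The bars of Esrrb are at 21 (AA-labelled) and 10, and the AA-labelled bar of Zfp42 is below its mark, which lies within the interval of that bar.

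The AA-labelled list had 87 peaks against 76, a ratio of 1.14 (0.832 to 1.58), and the whole lists had a ratio of 0.906 (0.896 to 0.916). The interval at the loci includes both 1 and the ratio of the whole lists, and without Esrrb the lists had 66 peaks each. By locus the ratio was 2.10 at Esrrb (0.947 to 4.99), 1.5 at Tbx3 (0.564 to 4.23), 1.22 at Pou5f1 and also at Sox2 (0.460 to 3.34 each), 0.917 at Klf4, 0.857 at Nanog, 0.846 at Prdm14 and 0.5 at Zfp42 (0.110 to 1.87). The intervals of all loci but Esrrb include 0.906, and that of Esrrb includes 1. In length the difference was wider. Peaks covered 137.6 kb in the AA-labelled list and 79.0 kb in the other, a ratio of 1.74 beside 1.21 over the whole lists. The AA-labelled list covered more at each of the 8 loci, from 1.14 times at Zfp42 and at Prdm14 to 2.69 times at Tbx3 and 3.37 times at Esrrb. The mean tag density in the covered length per kb and per 1000000 kept tags was 2.72 AA-labelled and 2.17 no-AA-labelled (whole lists: 2.46 and 2.06). Peaks at the loci were longer than elsewhere in both lists, at medians of 1414 and 929 bp against 1032 and 778 bp over the whole lists. The part that the unequal fragment length has in these lengths was not tested.

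Peaks at these loci had lower fold enrichment than the whole lists but more tags and a higher tag density. A fold enrichment of at least 10 over the local background, as the authors' caller gave it, was reached by 2 of the 87 AA-labelled peaks (2.30%, Clopper-Pearson 0.280% to 8.06%), where 21.7% of the whole list reached it. In the no-AA-labelled list 3 of 76 reached it (3.95%, 0.822% to 11.1%), beside 10.4%. The median fold enrichment at the loci was 6.16 (quartiles 5.17 and 7.61) and 5.77 (5.00 and 6.90), beside 7.86 and 7.05 over the whole lists. The tags per peak went the other way, with medians of 43 and 37 at the loci and 27 and 28 over the whole lists. So did the median tag density per kb and per 1000000 kept tags, at 2.57 and 2.06 against 2.22 and 1.90. The stricter limit of p at 1e-10 was passed by 16 AA-labelled peaks (18.4%, 10.9% to 28.1%), beside 22.9%, and by 11 no-AA-labelled peaks (14.5%, 7.45% to 24.4%), beside 18.4%. A local background worked out from tags, length and fold had a median of 1.47 times the median of all peaks in the AA-labelled list and of 1.33 times in the other. This background is worked out from the fold itself and is no separate measurement. By locus it was lowest at Zfp42 (0.958 and 0.742 times), where the median fold was highest (8.03 and 7.55) and above that of the whole lists. Not every locus had the higher density. The mean in the covered length was 2.28 and 1.78 at Zfp42 and 2.17 and 1.96 at Klf4, below the 2.46 and 2.06 of the whole lists. At Tbx3 it was below in the no-AA-labelled list only (2.03).

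**Figure D3:**
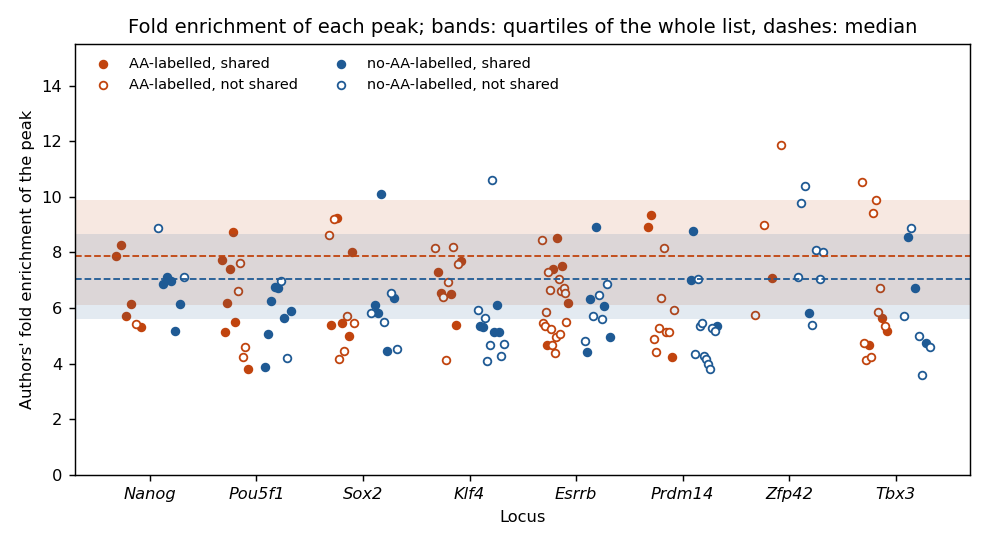
The authors' fold enrichment of each peak on the y axis by locus on the x axis; filled points are shared and open points unshared peaks, bands span the quartiles of the whole lists and dashed lines are their medians. The points lie between 3.58 and 11.88, and 5 of them are at 10 or above.

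Of the AA-labelled peaks 34 of 87, or 39.1% (Clopper-Pearson 28.8% to 50.1%), overlapped a no-AA-labelled peak by at least 1 bp, beside 47.5% of the whole list. Of the no-AA-labelled peaks 34 of 76, or 44.7% (33.3% to 56.6%), were shared, beside 43.6%. Both intervals include the share of the whole list. By locus the shares rest on few peaks, and their Clopper-Pearson intervals overlap in each list (35.9% to 99.6% at Nanog and 8.22% to 47.2% at Esrrb in the AA-labelled list). Nanog had 5 of 6 AA-labelled and 5 of 7 no-AA-labelled peaks shared, and Pou5f1 7 of 11 and 7 of 9. Sox2 had 5 of 11 and 5 of 9, Klf4 5 of 11 and 5 of 12. At Esrrb the shares were 5 of 21 and 5 of 10, at Tbx3 3 of 12 and 3 of 8, at Prdm14 3 of 11 and 3 of 13, and at Zfp42 1 of 4 and 1 of 8. Past the limit of p at 1e-10, 10 of 16 peaks were shared in the AA-labelled list, and 10 of 11 in the other, beside 76.1% and 79.3% of the peaks of that strength in the whole lists. Unshared peaks lay a median of 10.6 kb (AA-labelled) and 7.28 kb (no-AA-labelled) from the nearest peak of the other list. Regions short of the cutoff are not listed, so an unshared peak shows a region not called in the other library, not one without 5hmC.

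Pou5f1, the POU factor without which pluripotency is lost, had no peak in its interval on chromosome 17 (35642000 to 35648000). The stretch free of peaks around it ran from 35634900 to 35657324 with no peak of either list (22.4 kb), and from 35616555 to 35708201 in the no-AA-labelled list (91.6 kb). The nearest AA-labelled peaks, at 7.66 kb before and 10.1 kb after the interval, held 21 and 57 tags and were not shared. At the mean autosomal density of 23.3 and 25.7 peaks per Mb, most intervals of 6 kb would hold no peak. Of the 200 kb windows over all autosomes, 7.96% held no AA-labelled peak and 6.28% no no-AA-labelled peak. How common peak-free stretches of such lengths are elsewhere was not worked out, here or at the other loci. The peaks on the upstream side, included those of highest tag number and smallest p of the locus in both lists. The largest, 80.1 kb upstream (35560405 to 35563472), held 168 AA-labelled and 154 no-AA-labelled tags, at 4.6 and 2.71 tags per kb and per 1000000 kept tags. Its log2 ratio of tag density, AA-labelled over no-AA-labelled, was 0.76 (0.44 to 1.09), and its fold enrichment was 7.72 and 3.89. A pair 65.3 kb upstream (35575248 to 35578206) with 134 and 67 tags had a log2 ratio of 0.69 (0.25 to 1.13). The pair 26.5 kb upstream (35614141 to 35616956) had the lowest ratio of the locus, -0.21 (-0.74 to 0.32), with 73 and 54 tags. In RefSeq's gene order on GRCm38.p6, H2-Q10, H2-Q7 and H2-Q6 are the next protein-coding genes on this side of Pou5f1. Whether these peaks lie in them was not determined on mm9. H2-Q genes, of the major histocompatibility complex, are close copies of one another, and how reads that map to several places were treated is not given in the sources used here, so the tags on that side are uncertain. The highest fold enrichment was 8.73 at 43.8 kb upstream in the AA-labelled list and 6.97 at 38.7 kb upstream in the other.

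Sox2, the HMG-box partner of Oct4, also had no peak in its interval on chromosome 3 (34548000 to 34552000). The stretch free of peaks ran from 34536739 to 34557161, or 20.4 kb. The nearest peak downstream was shared and lay 5.81 kb past the interval (34557228 to 34558385 in the AA-labelled list). It held 33 AA-labelled and 37 no-AA-labelled tags, a log2 density ratio of 0.39 (-0.33 to 1.11), while its fold enrichment was 5.46 against 10.10, the highest no-AA-labelled fold of the locus. Density and fold enrichment thus ordered the libraries in opposite ways at this site. The highest AA-labelled fold, 9.25, was at 24.0 kb upstream (34523519 to 34524389), with 39 and 38 tags and a log2 density ratio of 0.76 (0.08 to 1.45). All 5 pairs of the locus had a higher density in the AA-labelled library, the lowest being 0.07 (-0.49 to 0.62) at 74.5 kb downstream. On the upstream side the nearest peaks were at 11.8 kb in the AA-labelled list, with 29 tags and unshared, and at 23.9 kb in the other.

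Nanog, the homeodomain factor that sustains self-renewal, had 1 peak in its interval on chromosome 6 (122657000 to 122665000). This peak (122662746 to 122663943) was in the AA-labelled list, with 42 tags (30.3 to 56.8 by Poisson) at 5.42-fold enrichment. In the no-AA-labelled list no peak was called from 122647331 to 122742105, a stretch of 94.8 kb that holds the whole gene interval. On the upstream side the lists shared 4 sites, at 10.7, 33.4, 62.6 and 66.0 kb. Tags there were 81 and 63, 70 and 56, 65 and 40, and 38 and 31, in the order of AA-labelled and no-AA-labelled. The pair at 66.0 kb (122590622 to 122591372) had the highest log2 density ratio of all pairs at the 8 loci, 0.86 (0.13 to 1.59), and the pair at 77.9 kb downstream the lowest of this locus, 0.16 (-0.42 to 0.73). The density of all 5 pairs was higher in the AA-labelled library, and all intervals but that of the pair at 66.0 kb include 0. The highest fold was 8.25 at 62.6 kb upstream in the AA-labelled list and 8.89 at 93.6 kb upstream in the other, the latter in an unshared peak of 12 tags.

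Klf4, a zinc finger factor downstream of LIF signalling, had peaks next to its interval on chromosome 4 (55540000 to 55546000) but none in it. The gene runs on the minus strand, so the side of higher positions is upstream. The nearest upstream peak was in the no-AA-labelled list, 2.70 kb from the interval (55548338 to 55549056), with 24 tags (15.4 to 35.7) and a fold enrichment of 10.61, the highest no-AA-labelled fold at the 8 loci. The nearest downstream peak was AA-labelled, 2.14 kb from the interval (55537474 to 55538248), with 24 tags and a fold of 6.94. Neither was shared. The next upstream site was shared, 7.30 kb from the interval (55552702 to 55553899), with 23 and 29 tags and a log2 density ratio of -0.09 (-0.95 to 0.75). The highest AA-labelled fold was 8.19, at 14 kb upstream. The 3 pairs of this locus had log2 ratios from -0.12 (-1.03 to 0.77) at 30.3 kb to 0.14 (-0.61 to 0.89) at 62.1 kb upstream, so none stood apart from 0.

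Tbx3, a T-box factor that supports self-renewal, had 1 peak in its interval on chromosome 5 (120120000 to 120135000). It was AA-labelled (120128237 to 120128900), with 15 tags (8.40 to 24.7) and a fold of 9.90, and was not shared. AA-labelled peaks also lay 3.55 kb after the interval, with 73 tags, and 17.1 kb after it (120151359 to 120152820), with 62 tags and the smallest p of the AA-labelled peaks at the 8 loci (a score of 169.04, 10 times the −log10 of p). The no-AA-labelled list had a peak 2.65 kb before the interval (120117063 to 120117632), with 20 tags and a fold of 8.89, its highest at this locus, and then none up to 120182632, a stretch of 65.0 kb. The highest AA-labelled fold was 10.52 in an unshared peak of 31 tags at 88.2 kb before the interval. The 3 pairs had log2 density ratios of 0.23 (-0.54 to 1.01), 0.46 (-0.20 to 1.14) and 0.49 (-0.07 to 1.05). The first of these pairs overlapped by 23 bp and may be a pair of neighbouring sites.

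Esrrb, an orphan nuclear receptor of the network, was the locus with peaks throughout the gene. Its interval on chromosome 12 (87700000 to 87865000) is 165 kb long. It held 11 peaks of the AA-labelled list and 6 of the other, of which 3 in each list were shared. The shared site nearest the start of the interval (87701440 to 87703096) had 56 and 49 tags, folds of 4.66 and 4.40 and a log2 density ratio of 0.38 (-0.19 to 0.97). The second (87759883 to 87761237) had 39 and 58 tags and a ratio of 0.16 (-0.46 to 0.77), and the third (87802366 to 87803429) had 24 and 30 tags and a ratio of -0.16 (-0.99 to 0.67). The last of these sites had the highest fold of the locus in both lists, 8.51 and 8.91. Between 87720186 and 87743679 lay 4 AA-labelled peaks with 36, 64, 63 and 51 tags where the no-AA-labelled list had none. A further 2 AA-labelled peaks (87775862 to 87777600 and 87781635 to 87783894) had 75 and 77 tags, and unshared AA-labelled peaks of 25 and 70 tags lay at 87809212 and 87861584. The no-AA-labelled list had unshared peaks of 52, 20 and 52 tags at 87792734, 87838414 and 87855019. Before the interval an AA-labelled peak of 4476 bp (87658454 to 87662929), the longest at the 8 loci, held 150 tags and had no counterpart. The nearest peak after the interval was AA-labelled, at 7.02 kb with 22 tags, and the nearest in the other list, at 12.1 kb, was shared and had the lowest ratio of the locus, -0.19 (-1.04 to 0.63). The pair at 88.2 kb after the interval had the highest, 0.40 (-0.38 to 1.21).

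**Figure D4:**
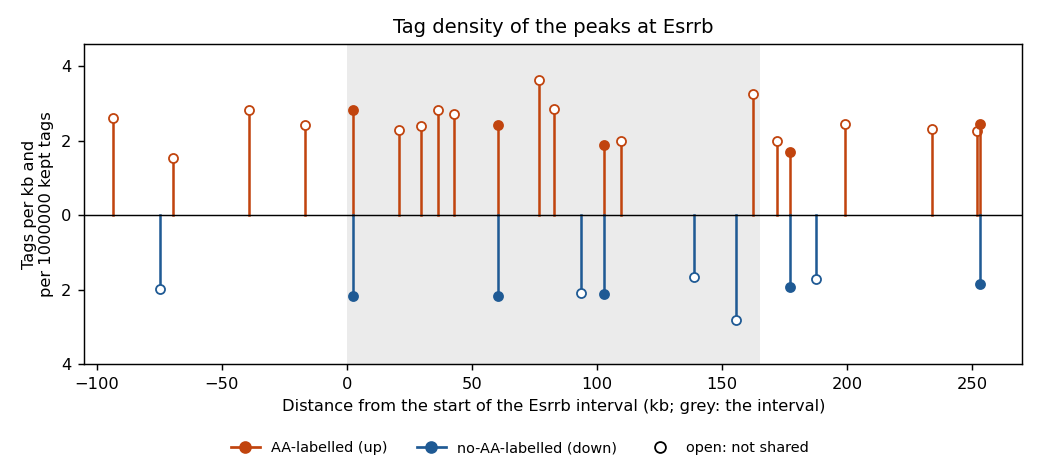
Tag density of each peak at Esrrb in tags per kb and per 1000000 kept tags, with the AA-labelled list drawn upward and the other downward against the distance of the midpoint from the start of the interval in kb; filled points are shared. In the grey interval 8 of the 11 AA-labelled points are open, and 3 of the 6 points of the other list.

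Prdm14 had many peaks in both lists that lay beside each other without overlap. Its interval on chromosome 1 (13103000 to 13118000) held an AA-labelled peak (13104935 to 13106109) with 45 tags and a fold of 6.37, and a no-AA-labelled peak (13108482 to 13109977) with 84 tags and a fold of 3.98. The nearest flanking peaks were AA-labelled at 5.67 kb after the interval, with 62 tags and a fold of 8.15, and no-AA-labelled at 5.17 kb before it, with 40 tags. The 8 unshared AA-labelled and 10 unshared no-AA-labelled peaks lay a median of 3.93 kb from the other list in each case, and 5 and 6 of them within 5 kb. Over all 8 loci the medians were 10.6 and 7.28 kb. The AA-labelled median was the lowest of the 8 loci. In the no-AA-labelled list Tbx3 (3.48 kb, 5 peaks) and Pou5f1 (3.08 kb, 2 peaks) had lower ones. Such gaps were not worked out for the whole lists, and the part of peak density in them was not tested. Sites in common were at the ends of the window. The pair 83.5 kb before the interval (13019033 to 13019969) had the highest fold of the locus in both lists, 9.36 and 8.78, with 31 and 44 tags and the lowest ratio, -0.02 (-0.74 to 0.67). The pair 97.4 kb before it had the highest ratio, 0.64 (-0.01 to 1.30), with 54 and 34 tags, and the pair 75.2 kb after it held 71 tags in 2224 bp against 153 in 3638 bp, a ratio of 0.23 (-0.20 to 0.65).

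Zfp42, which encodes the zinc finger protein Rex1, was the locus with the fewest AA-labelled peaks. No peak lay in its interval on chromosome 8 (44380000 to 44393000), and the AA-labelled list had none from 44348172 to 44492374, or 144.2 kb, whereas the no-AA-labelled list was free of peaks for 30.0 kb (44373096 to 44403142). The nearest no-AA-labelled peaks were 7.25 kb before and 10.5 kb after the interval, with 24 and 23 tags. The gene runs on the minus strand, so the first of these is downstream. The single pair, 33.3 kb downstream (44345207 to 44348171), had 98 tags over 2965 bp in the AA-labelled list, where the other had 38 over 1107 bp, a log2 density ratio of 0.57 (0.02 to 1.15). The highest AA-labelled fold at the 8 loci, 11.88, belonged to an unshared peak of 14 tags (7.65 to 23.5) at the upstream end of the window. The no-AA-labelled list had folds of 10.39 and 9.78 in neighbouring unshared peaks of 22 and 13 tags, at 57.0 and 57.6 kb downstream. The Zfp42 window was the one where the AA-labelled list fell below the mean autosomal number, with 4 peaks (1.09 to 10.2 by Poisson) beside 4.97, which that interval includes. Per Mb it held 18.8 AA-labelled peaks (5.12 to 48.1) and 37.6 no-AA-labelled peaks (16.2 to 74.0). Chromosome 8 as a whole held 29.4 and 35.4 per Mb, which these intervals include.

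Where both libraries had a peak, tag density could be compared. The 32 pairs that overlapped one to one had median densities of 2.73 AA-labelled and 2.16 no-AA-labelled tags per kb and per 1000000 kept tags. Their log2 ratios had a median of 0.32 (0.15 to 0.48, from the spread over pairs), which is 1.25-fold, beside 0.22 (0.21 to 0.22) over all 26954 pairs, which lies within the interval at the loci. In 25 of 32 pairs, or 78.1%, the AA-labelled density was the higher one, beside 75.2% of all pairs. None of the 32 differed by over 2-fold, a difference that 1.47% of all pairs reached with the AA-labelled library higher and 0.0223% with it lower. The intervals of 5 pairs lay above 0, those at 80.1 and 65.3 kb upstream of Pou5f1, 66.0 kb upstream of Nanog, 24.0 kb upstream of Sox2 and 33.3 kb downstream of Zfp42. The intervals of the first 2 of these, both upstream of Pou5f1, also lay above the median of all pairs. The share of all 26954 pairs with such intervals was not worked out, so neither count sets the loci apart. The sign of the median depends on the scaling: it was -0.21 with tags scaled to the tags inside peaks and -0.31 without scaling. Over all pairs these values were -0.31 and -0.41. By the authors' fold enrichment 20 of 32 pairs (62.5%) were higher in the AA-labelled list, beside 70.2% of all pairs. The median log2 ratio of fold was 0.13, beside 0.21 over all pairs. The median at the loci was thus below that of all pairs by fold and above it by density.

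**Figure D5:**
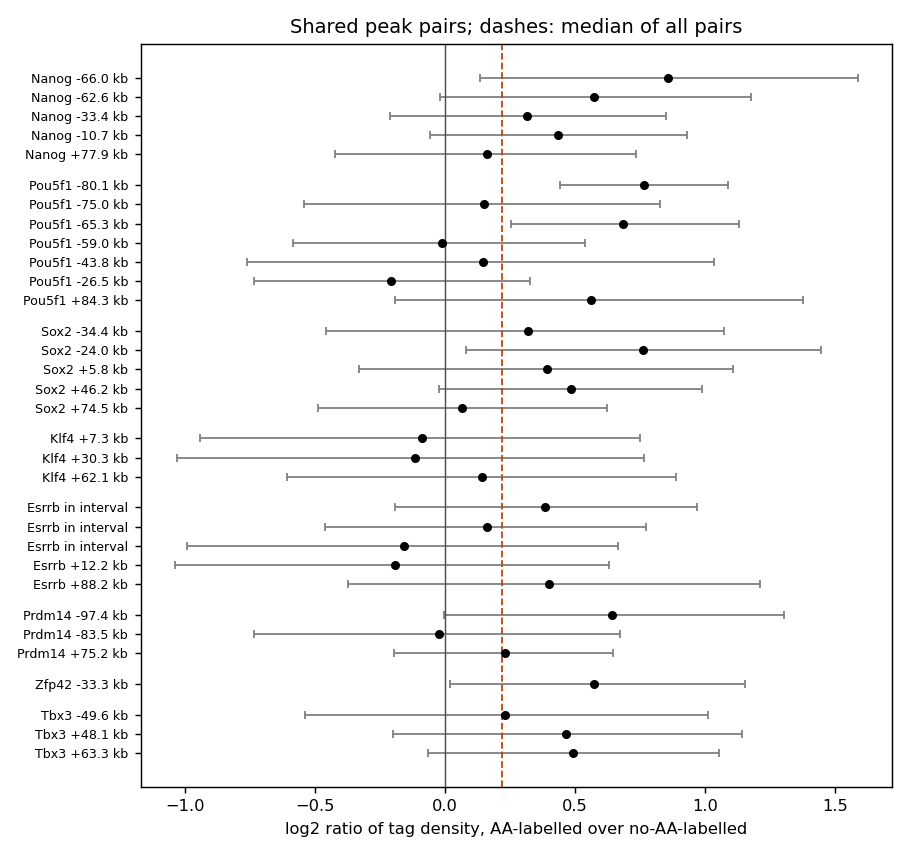
log2 ratio of tag density, AA-labelled over no-AA-labelled, on the x axis for the 32 shared pairs, named on the y axis by locus and distance from the gene interval, with 95% intervals from the tag counts; the dashed line is the median of all pairs, 0.22. Points lie between -0.21 and 0.86, and 27 of the 32 intervals include 0.

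Peaks were also set by their distance from the genes. In the AA-labelled list the 8 intervals held 60.3 peaks per Mb (33 to 101.2), the first 10 kb on each side 56.3 (25.7 to 106.8), the stretch from 10 to 25 kb 54.2 (28.8 to 92.6) and that from 50 to 100 kb 42.5 (29.4 to 59.4). In the no-AA-labelled list these values were 30.2 (12.1 to 62.2), 37.5 (13.8 to 81.6), 33.3 (14.4 to 65.7) and 47.5 (33.6 to 65.2). From 25 to 50 kb both lists had 42.5 (24.8 to 68.0). All of these intervals overlap one another. The count inside rests on Esrrb, whose interval is 165 of the 232 kb: the other 7 intervals, 67 kb in all, held 3 AA-labelled peaks and 1 no-AA-labelled peak. Without Esrrb the AA-labelled list had 44.8 per Mb inside, below the 57.1 within 10 kb and the 52.4 from 10 to 25 kb.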

How the data were processed

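The submitters' processing notes name mm9, BWA 0.5.9-r16 and MACS 1.4.2. MACS made each list from 1 library with no control, per the file headers, at a p cutoff of 1e-05 and with the background taken over 10000 bp. Each deposited list gives tag counts, not scaled to library size, a score of 10 times the −log10 p, and a fold enrichment, a ratio to the library's own background. The authors' values per peak describe their own list. From them, peaks were assigned to loci by midpoint, overlaps of at least 1 bp were called shared, and tags were divided by peak length and kept tags. Intervals at 95% are exact Poisson, Clopper-Pearson, or conditional on the sum of both counts, and for medians over pairs order statistics. They cover counting error or the spread over pairs only. Calculations used Python 3.11.15, pandas 2.3.3, NumPy 2.4.6 and SciPy 1.17.1, and the code was tested on simulated lists. The genes and lists were chosen with earlier results of these data known. The text names every peak inside a gene interval, the peak nearest the interval (or inside it) and that of highest fold in each list, the extreme pairs of each locus, and the 3 unshared peaks of highest fold per list. Other peaks named were chosen after their values were seen. No mm9 annotation or genome was used, so other pluripotency genes were not placed. Alternatives were stricter cutoffs, other windows, overlaps and scalings, exchanged lists and omitted loci.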

Additional observations from a re-analysis of the deposited data

How the results depend on the processing

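The settings without Esrrb and without Pou5f1 were added after seeing the data. For peak numbers the log2 ratio, 0.20, turned to -0.58 at 10-fold enrichment or more (2 against 3 peaks) and to -0.20 with the lists exchanged, and ranged from 0.00 (without Esrrb) and 0.01 (windows of 200 kb) to 0.48 (windows of 50 kb) and 0.54 (p of at most 1e-10) in the others. That of covered length, 0.80, turned to -0.42 and -0.80 in the first 2 of these settings and ranged from 0.59 (without Esrrb) to 1.12 (windows of 50 kb) in the others. The shared percentages, 39.1 and 44.7, became 62.5 and 90.9 for peaks with a p of at most 1e-10. The median log2 density ratio of the pairs, 0.32, became 0.62 for tags per peak and 0.13 for fold enrichment. It became -0.21 with scaling to tags in peaks, -0.31 without scaling and -0.32 with the lists exchanged. Over all pairs these medians were, in the same order, 0.22, 0.52, 0.21, -0.31, -0.41 and -0.22. Peaks per Mb, 47.5 and 41.5, became 8.73 and 6.0 at a p of at most 1e-10, beside 5.22 and 4.63 on all autosomes. Fewer peaks pass this limit, and in proportion the loci lay closer to the autosomes than at the main cutoff. No interval was worked out for these 16 and 11 peaks, so the loci are not shown to differ from the autosomes there. The 21 peaks in gene intervals became 2 at that p (1 in each list) and 4 without Esrrb. Exchanging the lists turns signs by construction and a scaling moves all pairs alike. Elsewhere the cause was not tested. The other 39 alternatives of 54 stayed within the interval of the main value, or within 1.5 times the count inside gene intervals. For covered length that interval was borrowed from the ratio of peak numbers and moved to the length ratio. It is thus a yardstick only and does not measure the error of a length. No paired analysis was possible because there is 1 library per group. Leaving out a library was likewise not feasible.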
